A study of Mus musculus with 20 samples.

Results

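The transcripts of 10 genes that restrain mitogen-activated protein (MAP) kinase signalling were followed in RAW264.7, an established mouse line of the monocyte lineage whose cells become osteoclasts under RANKL. The genes were taken by symbol: the dual-specificity phosphatases Dusp1, Dusp2, Dusp4, Dusp5, Dusp6, Dusp10 and Dusp16, and the pathway inhibitors Spry2, Spred1 and Spred2. They are 10 of the 50686 genes in the count table, and all 10 passed the filter on low counts. Poly(A) RNA was sequenced in 20 libraries, 2 for each of 10 groups: untreated cells at hour 0, and cells given RANKL (50 ng/ml), I-BET (500 nM) or RANKL plus I-BET for 4, 14 or 24 h. RANKL is the cytokine that starts osteoclast formation, and I-BET inhibits the BET bromodomain proteins, which bind acetylated histones at active genes. The comparisons address what BET inhibition does alone and together with RANKL in the first day of osteoclast development. All groups are the same line, with no genetic change named in the labels; 1 label field gives bone marrow as the source, while the cell line field names RAW264.7. Untreated cells were taken at hour 0 only, so time in culture and treatment cannot be told apart in any comparison with them. No label states that paired libraries were grown as separate cultures, so p-values measure only the spread between these libraries, which may be technical.

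Library totals ran from 19051780 to 62313792 counts. Of 8 macrophage markers 7 were in the table, and each was above 1 CPM (counts scaled to library size) in all 20 libraries. Their summed level was 8534 and 8578 CPM in untreated cells, and it moved with the groups at the later hours. It was 4000 and 4860 CPM at 14 h and 3071 and 3478 CPM at 24 h of RANKL, 5861 and 6999 and then 4862 and 5344 CPM with RANKL plus I-BET, and 6506 to 7476 CPM with I-BET at these hours. Lyz2 had the widest range of these markers, from 822 to 5787 CPM over all libraries. The part of this shift in the results at 14 and 24 h was not tested, and Adgre1 was not analysed here. Summed markers of T, B, NK, erythroid, endothelial and epithelial cells and of neutrophils reached at most 0.445 CPM in any library, and those of fibroblasts and osteoblasts at most 7.45 CPM. In the last list Runx2 reached 7.23 CPM, Bglap at most 0.193, Col1a1 at most 0.0714 and Col1a2 0 CPM. Gm26917, Lars2, Rpph1, Rmrp and Rn7sk were listed as related to structural RNA. Together they made up 2.14% of the counts in untreated library 2 and 0.0460 to 0.199% in the other libraries. Lars2, which encodes a protein, had the highest value of them, at up to 17230 CPM, and Gm26917 reached 3892 CPM. The most counted gene of that library, CT010467.1, which is not on that list, took a further 5.23%, while in the others it was mt-Co1. Some of the 47 calls described below ended when untreated library 1 or untreated library 2 was left out of the main fit, which then holds 1 untreated library. More of them ended without untreated library 1 than without untreated library 2. Fewer ended without untreated library 2 in a fit that also allowed a shift shared by libraries of the same number. The part of the listed genes in these calls was not tested.

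MAP kinases (ERK, JNK and p38) are switched on when an upstream kinase phosphorylates a threonine and a tyrosine in their activation loop. Dual-specificity phosphatases remove both phosphates, and several of them are transcribed in response to the kinase they switch off, which makes them negative feedback genes. Sprouty and SPRED proteins act further upstream, between receptors and the RAS and RAF proteins; SPRED proteins bring neurofibromin, a protein that turns RAS off, to the membrane. In macrophages and osteoclast precursors RANKL signals through RANK and TRAF6 to ERK, JNK and p38, and the phosphatases set how long those kinases stay active.

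The promoters of Dusp1, Dusp2, Dusp5 and Dusp6 are shown because the first 3 of these genes rose at 4 h of RANKL while Dusp6 fell at 14 h. RefSeq promoter sequence (GRCm38.p6) was matched for 9 of the 10 genes, Dusp4 being the exception. Each run is the genome sequence before the gene's start, 5' to 3' on the gene's strand and up to the first annotated exon base. The positions are chr17:26508520-26508722 (minus strand) for Dusp1, chr2:127335909-127336158 (plus strand) for Dusp2, chr19:53528895-53529108 (plus strand) for Dusp5 and chr10:99262981-99263230 (plus strand) for Dusp6. Capitals mark matches to any of 5 motifs searched on both strands: TGACGTC (the cyclic AMP response element core), TGANTCA (AP-1), the CArG box of serum response factor, CACGTG (an E-box) and CCGGAAG (ETS).
Dusp1: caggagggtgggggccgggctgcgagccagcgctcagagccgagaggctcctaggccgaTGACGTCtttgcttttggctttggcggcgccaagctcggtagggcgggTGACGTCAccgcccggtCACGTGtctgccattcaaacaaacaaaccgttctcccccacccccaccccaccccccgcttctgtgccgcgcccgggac
Dusp2: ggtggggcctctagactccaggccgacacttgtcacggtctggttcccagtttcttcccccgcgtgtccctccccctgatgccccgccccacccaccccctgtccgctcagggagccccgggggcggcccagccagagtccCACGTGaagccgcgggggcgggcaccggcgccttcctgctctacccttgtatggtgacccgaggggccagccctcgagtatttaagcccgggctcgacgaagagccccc
Dusp5: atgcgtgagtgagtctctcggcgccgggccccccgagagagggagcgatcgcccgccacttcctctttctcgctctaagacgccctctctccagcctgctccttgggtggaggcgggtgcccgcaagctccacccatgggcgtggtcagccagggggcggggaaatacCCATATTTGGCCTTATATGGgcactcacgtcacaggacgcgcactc
Dusp6: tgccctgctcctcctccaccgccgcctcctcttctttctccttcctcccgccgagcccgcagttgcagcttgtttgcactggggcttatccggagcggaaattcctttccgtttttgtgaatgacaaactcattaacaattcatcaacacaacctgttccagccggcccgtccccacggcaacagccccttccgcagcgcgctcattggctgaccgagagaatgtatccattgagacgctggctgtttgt

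Over the 250 bases before the RefSeq start, Dusp1 had TGACGTC at 191 and 143 bases before the start, the second as the palindrome TGACGTCA, which also matches on the other strand, and CACGTG at 126 bases. Dusp2 had CACGTG at 109 bases. Dusp5 had CArG boxes at 82 and 72 bases, side by side. None of the 5 motifs was in the Dusp6 window. Among the other 5 genes searched a single match was found, TGACGTC on the other strand at 53 bases in Spred2, past its first annotated exon base. Among 32851 RefSeq windows of the same length 2.78% held TGACGTC, 6.75% TGANTCA, 1.47% a CArG box, 6.02% CACGTG and 6.91% CCGGAAG. The median GC content of these windows was 52.4%, against 68.4% for Dusp1, 70.4% for Dusp2, 64% for Dusp5 and 56.4% for Dusp6. The shares were not matched for GC content. These matches describe the letters only; binding was not measured here.

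Levels per length are given as RPKM, read counts scaled to transcript length and library size. Averaged over the 10 groups, Spred1 had by far the highest level, 88.4 RPKM, and Dusp10 the lowest, 0.526 RPKM. Dusp4 averaged 15.5, Spred2 12.8 and Dusp2 6.51 RPKM. The remaining 5 genes, Dusp1, Dusp6, Dusp5, Spry2 and Dusp16, averaged 3.45, 2.77, 2.68, 2.60 and 2.39 RPKM. The genes also differed in how far they ranged: the highest group mean was 15.8 times the lowest for Dusp5 and 15.2 times for Dusp6. That ratio was 4.15 for Dusp4, 4.01 for Dusp1, 2.78 for Dusp2, 2.19 for Spred1, 2.08 for Dusp10, 1.81 for Dusp16, 1.67 for Spred2 and 1.57 for Spry2.

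**Figure D1:**
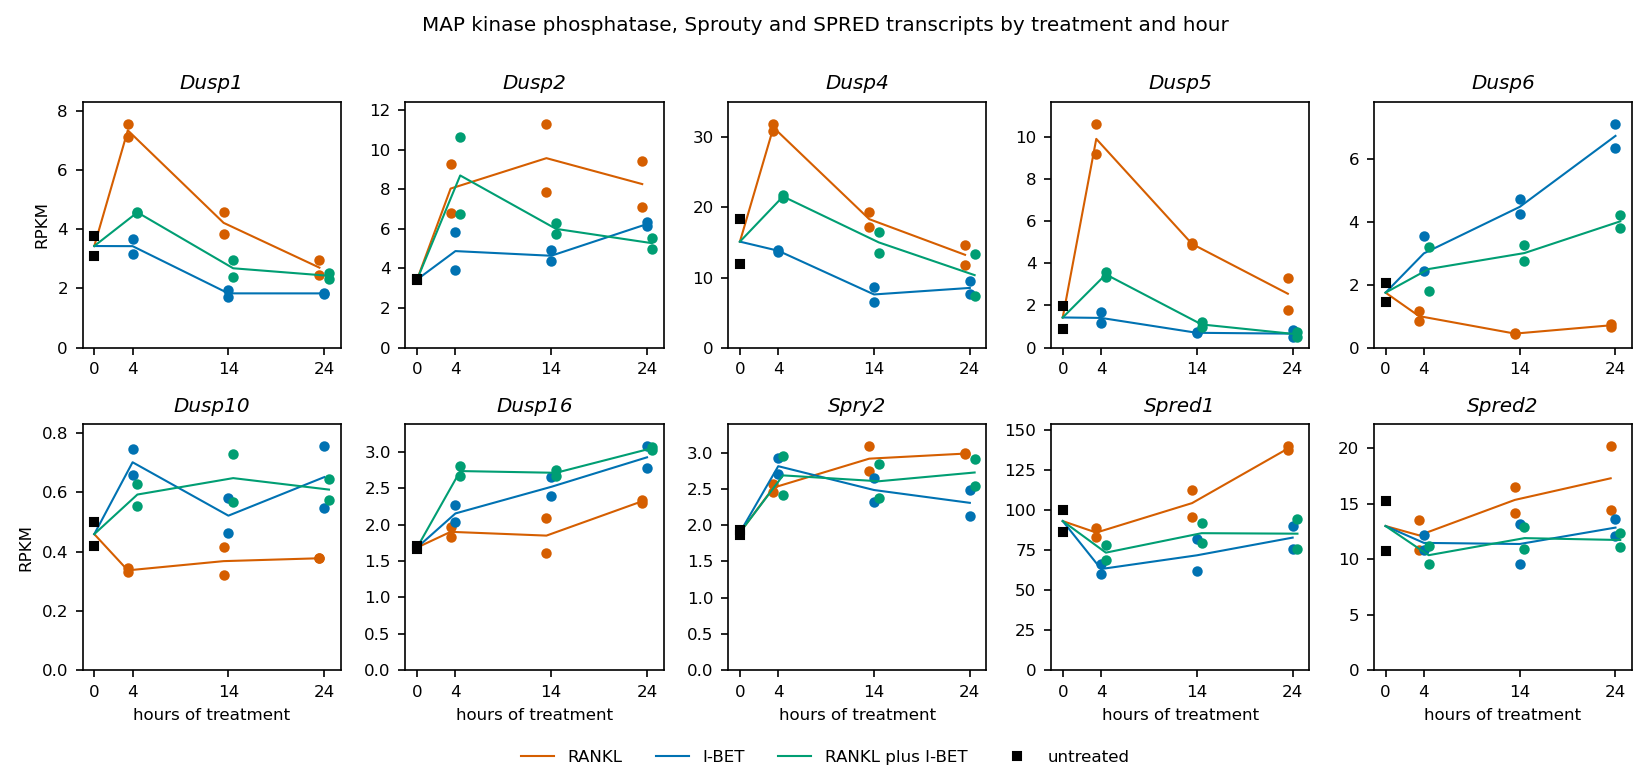
Deposited RPKM (y axis, linear, from 0) against hours of treatment (x axis), 1 panel per gene; points are single libraries, 2 per group, set slightly apart sideways, and lines join group means from the untreated cells at hour 0 (black squares; orange RANKL, blue I-BET, green both). Dusp1, Dusp4 and Dusp5 peak at 4 h of RANKL, at group means of 7.34, 31.4 and 9.92 RPKM, while Dusp6 is lowest with RANKL at 14 h (0.444 RPKM) and highest with I-BET at 24 h (6.74 RPKM).

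Differences between groups are log2 fold changes of normalised counts with their standard errors (SE), from edgeR's quasi-likelihood test over 16042 genes; a gene is called, and said to rise or fall, at a Benjamini-Hochberg adjusted p under 0.05. At 4 h of RANKL 4 of the 10 genes were called against untreated cells, where 3.91% of all tested genes were called; all 4 rose (2.08% of all genes). At 14 h of RANKL 4 were called (18.4% of all genes), of which 3 rose (8.31%) and 1 fell (10.1%). At 24 h of RANKL 5 were called (18.9%), of which 4 rose (8.04%) and 1 fell (10.9%). I-BET alone gave 1 call at 4 h (10.5%), a fall (6.48%), 5 at 14 h (13.7%), with 2 rising (5.29%) and 3 falling (8.37%), and 5 at 24 h (17.7%), with 2 rising (7.50%) and 3 falling (10.2%). RANKL plus I-BET against RANKL gave 5 calls at 4 h (11.4%), with 3 rising (4.93%) and 2 falling (6.46%), 5 at 14 h (22.1%), with 3 rising (10.8%) and 2 falling (11.2%), and 6 at 24 h (26.8%), with 3 rising (13.9%) and 3 falling (12.9%). A fit with the library number as a block, a shift shared by libraries of the same number, called 8 of the 10 genes at 24 h of RANKL (36.8% of all tested genes in that fit), 2 at 4 h of I-BET (29.0%) and 8 for RANKL plus I-BET against RANKL at 14 h (40.2%). Of the block's added calls 17 involve untreated libraries, and 10 of these were not called when untreated library 2 was left out of that fit. In RNA from whole cultures, fewer cells of a type and less RNA per cell cannot be told apart. Comparisons with untreated cells share its 2 libraries, and those of RANKL with untreated cells share the RANKL libraries with those of the combination, so their values are set side by side and are not independent. The median difference of the 10 genes was 0.22 at 4 h of RANKL (all tested genes 0.01) and 0.39 at 24 h (all tested genes 0.05). The 10 genes were chosen with earlier results of these data known, so the shares and medians set beside them are descriptions only.

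**Figure D2:**
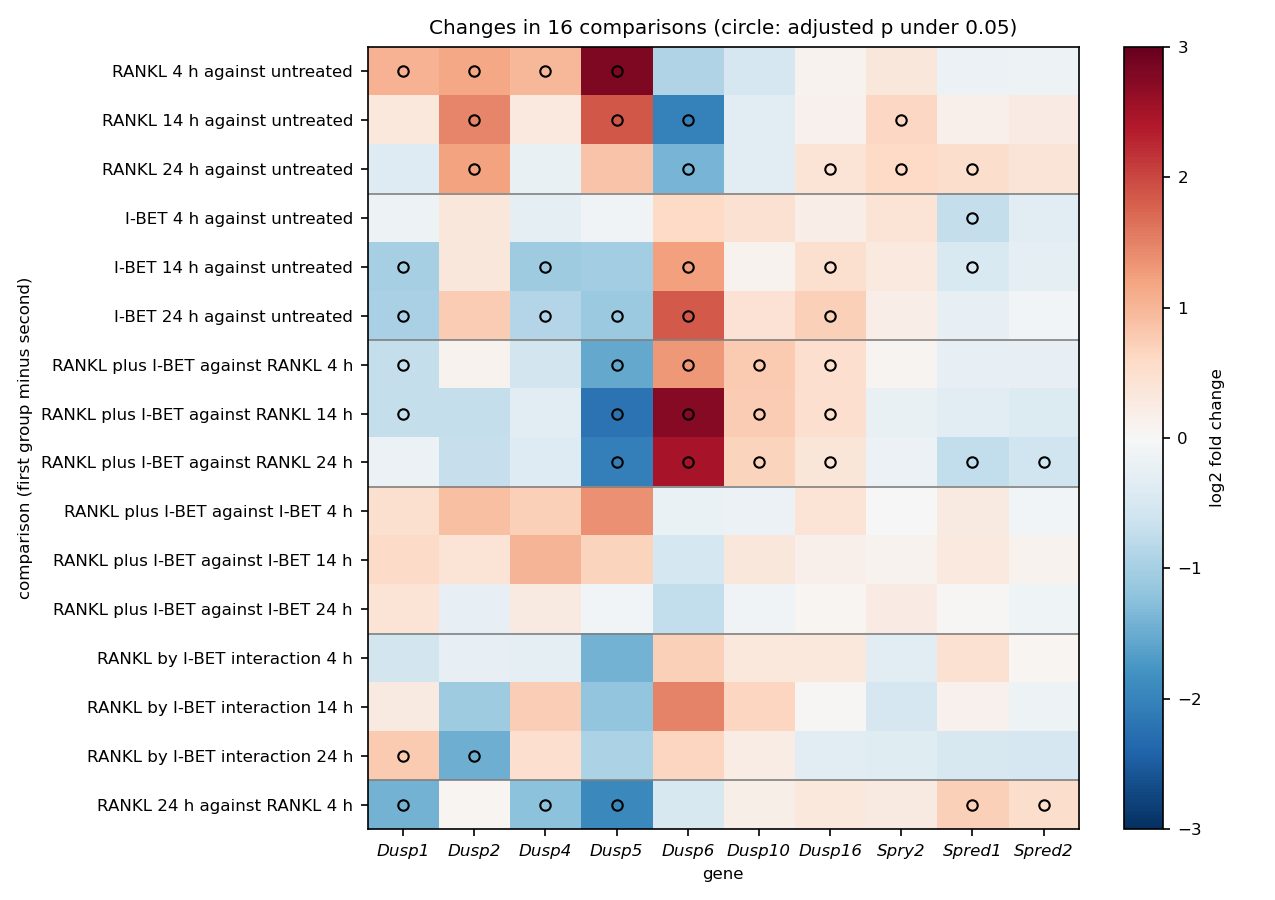
Colour gives the log2 fold change, the first group of the named comparison minus the second, for the 10 genes (x axis) in 16 comparisons (y axis); circles mark adjusted p under 0.05. The deepest colours are Dusp5 with RANKL at 4 h (2.79) and Dusp6 with RANKL plus I-BET against RANKL at 14 h (2.72).

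Among the nuclear phosphatases that are made on stimulation, Dusp5 and Dusp1 rose at 4 h of RANKL and fell with RANKL plus I-BET against RANKL at 4 and 14 h. Dusp5 (ENSMUSG00000034765, mm10 chr19:53529109-53542431) is specific for ERK. Its level was 1.97 and 0.885 RPKM in the 2 untreated libraries. With RANKL it was 10.6 and 9.21 RPKM at 4 h, 4.88 and 4.98 at 14 h, and 3.31 and 1.81 at 24 h. The libraries of 4 and 14 h lay above both untreated ones, while at 24 h the lower library lay between them. Dusp5 rose by 2.79 ± 0.34 (SE) at 4 h (adjusted p = 0.000354, 6.94-fold) and by 1.85 ± 0.33 at 14 h (adjusted p = 0.00144). At 24 h the difference was 0.85 ± 0.33 (adjusted p = 0.096; 0.00474 with the library number as a block, 0.158 with the block but without untreated library 2, and 0.00677 with low-count genes kept). Between 4 h and 24 h of RANKL Dusp5 fell by 1.94 ± 0.32 (adjusted p = 0.000535). The calls at 4 and 14 h and between the hours held with each library left out in turn; at 24 h Dusp5 was called without untreated library 1 (1.38, adjusted p = 0.0274) or without RANKL library 2 (1.20, adjusted p = 0.0362).

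With I-BET alone Dusp5 was at 1.67 and 1.15 RPKM at 4 h, 0.733 and 0.669 at 14 h, and 0.824 and 0.497 at 24 h. The last 4 values lay below both untreated libraries. The difference was -0.10 ± 0.34 at 4 h (adjusted p = 0.912) and -1.05 ± 0.35 at 14 h (adjusted p = 0.0664, and 0.0036 with the block, 0.0185 with DESeq2 and 0.000712 with low-count genes kept). With the block but without untreated library 2 the difference at 14 h was -1.35. At 24 h Dusp5 fell by 1.11 ± 0.35 on the log2 scale (adjusted p = 0.0419), a call that ended without untreated library 1 (-0.58, adjusted p = 0.402) or I-BET 24 h library 2 (-0.81, adjusted p = 0.248). At 14 h it was called when untreated library 2 was left out (-1.48, adjusted p = 0.0224). In cells given both, Dusp5 was at 3.59 and 3.37 RPKM at 4 h, 1.23 and 0.969 at 14 h, and 0.747 and 0.509 at 24 h. All of these lay below both RANKL libraries of the same hour. Against RANKL it fell at each hour, with differences of -1.53 ± 0.31 at 4 h (adjusted p = 0.0059), -2.23 ± 0.33 at 14 h (adjusted p = 0.000289, 4.67-fold) and -2.06 ± 0.34 at 24 h (adjusted p = 0.000458). The last 2 calls held with each library left out, and that at 4 h ended without RANKL plus I-BET library 2 (-1.51, adjusted p = 0.05004). A transcript on the opposite strand, AC137853.2, shares 547 exon bases with Dusp5, and without strand their reads cannot be told apart.

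Dusp1 (ENSMUSG00000024190, mm10 chr17:26505590-26508519, minus strand) acts in the nucleus on p38 and JNK and restrains cytokine production in macrophages. It was at 3.76 and 3.11 RPKM in untreated cells, 7.13 and 7.56 at 4 h of RANKL, 3.84 and 4.59 at 14 h, and 2.97 and 2.44 at 24 h. The RANKL libraries thus lay above the untreated ones at 4 and 14 h and below them at 24 h. Dusp1 rose by 1.04 ± 0.15 at 4 h (adjusted p = 0.00106, 2.05-fold), a call that held with each library left out. The difference was 0.31 ± 0.15 at 14 h (adjusted p = 0.187) and -0.39 ± 0.15 at 24 h (adjusted p = 0.0923; 0.0364 with the block, and 0.0544 with it but without untreated library 2). Between 4 and 24 h of RANKL it fell by 1.42 ± 0.15 (adjusted p = 1.06e-05), and this held with each library left out. Dusp1 shares 11 exon bases with Ergic1 on the opposite strand.

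With I-BET alone Dusp1 was at 3.18 and 3.68 RPKM at 4 h, among the untreated values, and at 1.71 and 1.95 at 14 h and 1.81 and 1.85 at 24 h, below both of them. It fell by 0.99 ± 0.15 at 14 h (adjusted p = 0.000551) and by 0.98 ± 0.15 at 24 h (adjusted p = 0.000427), each held with every library left out in turn. Given both, the cells had Dusp1 at 4.55 and 4.59 RPKM at 4 h, 2.96 and 2.40 at 14 h, and 2.52 and 2.33 at 24 h. The first 4 of these lay below the RANKL libraries of their hour, and those of 24 h overlapped them in RPKM. In normalised log2 CPM the pair of 24 h, at 2.746 and 2.664, lay below the RANKL libraries, at 3 and 2.772. Against RANKL, Dusp1 fell by 0.70 ± 0.14 at 4 h (adjusted p = 0.00615) and by 0.71 ± 0.15 at 14 h (adjusted p = 0.00308), with -0.19 ± 0.15 at 24 h (adjusted p = 0.396). The call at 4 h ended without RANKL library 2 (-0.63, adjusted p = 0.0629) or the combined library 1 (-0.67, adjusted p = 0.0551). That at 14 h ended without RANKL library 2 (-0.51, adjusted p = 0.0535) or the combined library 2 (-0.60, adjusted p = 0.0532).

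Dusp4 (ENSMUSG00000031530, mm10 chr8:34807297-34819894), a nuclear phosphatase of ERK and JNK, ran close to Dusp1. It was at 18.4 and 11.9 RPKM in untreated cells, a wide pair, and at 31.9 and 30.9 at 4 h, 17.2 and 19.4 at 14 h, and 14.7 and 11.8 at 24 h of RANKL. The libraries of 4 h stood above every other Dusp4 value. Dusp4 rose by 1.0 ± 0.23 at 4 h (adjusted p = 0.0253), with 0.30 ± 0.23 at 14 h (adjusted p = 0.447) and -0.22 ± 0.23 at 24 h (adjusted p = 0.577). The call ended without untreated library 2 (0.79, adjusted p = 0.304), RANKL library 1 (1.01, adjusted p = 0.119) or RANKL library 2 (0.98, adjusted p = 0.118). From 4 to 24 h of RANKL it fell by 1.23 ± 0.23 (adjusted p = 0.00157), which held with each library left out.

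I-BET alone left Dusp4 at 13.7 and 13.9 RPKM at 4 h, inside the untreated pair in RPKM, then at 8.63 and 6.53 at 14 h and 9.44 and 7.59 at 24 h, below it. In normalised log2 CPM the I-BET libraries of 4 h, at 5.146 and 5.169, lay just below the untreated ones, at 5.636 and 5.175. Dusp4 fell by 1.07 ± 0.23 at 14 h (adjusted p = 0.00685) and by 0.89 ± 0.23 at 24 h (adjusted p = 0.0162). Both calls ended without untreated library 1 (-0.83, adjusted p = 0.0824, and -0.64, adjusted p = 0.161). They also ended without I-BET library 2 of their hour (-0.91, adjusted p = 0.082, and -0.75, adjusted p = 0.133). The combination gave 21.4 and 21.7 RPKM at 4 h, 16.5 and 13.5 at 14 h, and 13.4 and 7.30 at 24 h. These lay below RANKL at 4 and 14 h and overlapped it at 24 h. No difference from RANKL was called: -0.56 ± 0.23 (adjusted p = 0.148; 0.0116 with low-count genes kept), -0.34 ± 0.23 (adjusted p = 0.342) and -0.39 ± 0.23 (adjusted p = 0.239). The last was called when the combined library 1, the higher of its pair, was left out (-0.86, adjusted p = 0.014).

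Dusp2 (ENSMUSG00000027368, mm10 chr2:127336159-127338376), a nuclear phosphatase of ERK and p38 found mainly in immune cells, rose with RANKL at each of the 3 hours. It was at 3.41 and 3.48 RPKM in untreated cells, and at 6.80 and 9.28 at 4 h, 7.85 and 11.3 at 14 h, and 7.10 and 9.44 at 24 h of RANKL. The 6 RANKL libraries all lay above both untreated ones, and library 2 was the higher in each pair. Dusp2 rose by 1.15 ± 0.28 at 4 h (adjusted p = 0.0364), 1.47 ± 0.28 at 14 h (adjusted p = 0.00229) and 1.21 ± 0.28 at 24 h (adjusted p = 0.00786). The call at 14 h held with each library left out. That at 4 h ended with any 1 of its 4 libraries left out: 1.05 and 1.25 without untreated library 1 and 2 (adjusted p = 0.219 and 0.209), 1.38 and 0.86 without RANKL library 1 and 2 (adjusted p = 0.0548 and 0.277). That at 24 h ended without untreated library 1 (1.12, adjusted p = 0.0706) or RANKL library 2 (0.95, adjusted p = 0.0746). Between 4 and 24 h of RANKL the difference was 0.06 ± 0.27 (adjusted p = 0.905).

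I-BET alone gave Dusp2 levels of 3.93 and 5.83 RPKM at 4 h, 4.36 and 4.92 at 14 h, and 6.15 and 6.34 at 24 h, each above both untreated libraries in RPKM. In normalised log2 CPM the pair of 4 h overlapped them, with I-BET library 1 at 2.90 and untreated library 2 at 2.96. No difference was called: 0.34 ± 0.28 (adjusted p = 0.539), 0.33 ± 0.28 (adjusted p = 0.566) and 0.77 ± 0.28 (adjusted p = 0.0775, and 0.00089 with the block, 0.04 with DESeq2 and 0.00136 with low-count genes kept). With the block but without untreated library 2 the difference at 24 h was 0.71. In cells given both it was at 6.77 and 10.6 RPKM at 4 h, 5.72 and 6.28 at 14 h, and 5.55 and 5.01 at 24 h. The pair at 4 h overlapped that of RANKL and the later pairs lay below it. The differences from RANKL were 0.10 ± 0.27 (adjusted p = 0.925), -0.73 ± 0.27 (adjusted p = 0.0759) and -0.68 ± 0.27 (adjusted p = 0.0823). With the block the last 2 had adjusted p = 0.000997 and 0.00162, with DESeq2 0.0387 and 0.0484, with low-count genes kept 0.00232 and 0.00828, and that at 14 h was called without RANKL library 1 (-0.97, adjusted p = 0.0495).

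Dusp6 (ENSMUSG00000019960, mm10 chr10:99263231-99267488), the ERK phosphatase of the cytoplasm, fell at 14 and 24 h of RANKL and rose with RANKL plus I-BET against RANKL at each hour. It was at 1.44 and 2.06 RPKM in untreated cells, and with RANKL at 0.837 and 1.17 at 4 h, 0.472 and 0.416 at 14 h, and 0.653 and 0.765 at 24 h. The RANKL libraries all lay below both untreated ones. The difference at 4 h was -0.91 ± 0.30 (adjusted p = 0.125; 0.021 with the block, 0.344 with the block but without untreated library 2, 0.0411 with DESeq2 and 0.00257 with low-count genes kept). Dusp6 fell by 2.02 ± 0.32 at 14 h (adjusted p = 0.000571, 4.04-fold), which held with each library left out, and by 1.39 ± 0.31 at 24 h (adjusted p = 0.0061). The call at 24 h ended without untreated library 2 (-1.0, adjusted p = 0.115) or RANKL library 1 (-1.26, adjusted p = 0.061). From 4 to 24 h of RANKL the difference was -0.47 ± 0.31 (adjusted p = 0.313).

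With I-BET alone Dusp6 was at 2.45 and 3.55 RPKM at 4 h, 4.72 and 4.24 at 14 h, and 7.12 and 6.36 at 24 h. The libraries of each hour stood above both untreated ones and above those of the hour before. The difference was 0.59 ± 0.29 at 4 h (adjusted p = 0.244). Dusp6 rose by 1.23 ± 0.29 at 14 h (adjusted p = 0.0114) and by 1.83 ± 0.29 at 24 h (adjusted p = 0.000582), the latter held with each library left out. The call at 14 h ended without untreated library 1 (0.94, adjusted p = 0.129) or I-BET library 1 (1.18, adjusted p = 0.06). Under the combination it was at 1.80 and 3.21 RPKM at 4 h, 2.75 and 3.27 at 14 h, and 4.23 and 3.81 at 24 h. Each lay above both RANKL libraries of its hour. Against RANKL, Dusp6 rose by 1.30 ± 0.29 at 4 h (adjusted p = 0.0107), 2.72 ± 0.32 at 14 h (adjusted p = 3.52e-05, 6.58-fold) and 2.47 ± 0.31 at 24 h (adjusted p = 4.27e-05). The calls at 14 and 24 h held with each library left out, and that at 4 h ended without RANKL library 1 (1.05, adjusted p = 0.124) or the combined library 2 (0.80, adjusted p = 0.154).

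**Figure D3:**
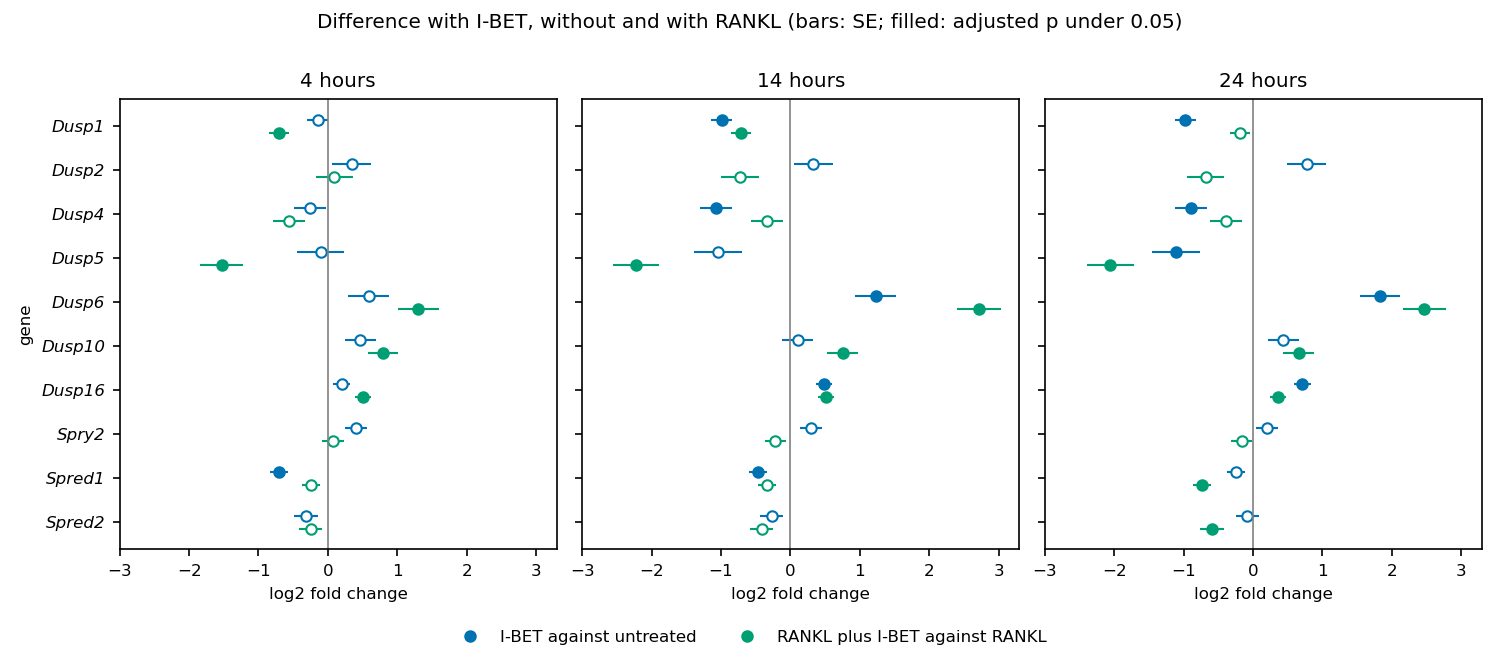
Log2 fold change (x axis) of each gene (y axis) with I-BET in the absence of RANKL (blue, I-BET against untreated) and in its presence (green, RANKL plus I-BET against RANKL), 1 panel per hour; bars are SE and filled points have adjusted p under 0.05. Dusp5 (-2.23 at 14 h) and Dusp6 (2.72 at 14 h) mark the ends of the range with RANKL. Dusp2 and Spry2 lie on opposite sides of 0 without and with RANKL at 14 and 24 h, all as open points (not called).

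The phosphatases that act mainly on JNK and p38, Dusp10 and Dusp16, were higher with RANKL plus I-BET than with RANKL at all 3 hours. Dusp10 (ENSMUSG00000039384, mm10 chr1:184013302-184075636) rested on 29 to 143 counts per library, the fewest of the 10 genes. It was at 0.500 and 0.417 RPKM in untreated cells, 0.344 and 0.329 at 4 h, 0.320 and 0.415 at 14 h, and 0.377 and 0.378 at 24 h of RANKL. The RANKL libraries all lay below the untreated ones, but no difference was called (-0.51 ± 0.23, adjusted p = 0.328 at 4 h; -0.31 ± 0.23, adjusted p = 0.438 at 14 h; -0.32 ± 0.23, adjusted p = 0.4 at 24 h). Cells given both had 0.629 and 0.555, 0.730 and 0.566, and 0.573 and 0.645 RPKM, above both RANKL libraries at each hour. Dusp10 rose by 0.80 ± 0.22 (adjusted p = 0.0325), 0.75 ± 0.22 (adjusted p = 0.0255) and 0.66 ± 0.22 (adjusted p = 0.0407). None of the 3 calls held with each library left out. At 4 h and at 24 h each ended with any 1 of the 4 libraries left out (0.73 to 0.86, adjusted p = 0.0962 to 0.16, and 0.56 to 0.76, adjusted p = 0.0691 to 0.206). At 14 h the call ended without RANKL library 1 (0.57, adjusted p = 0.188) or the combined library 1 (0.60, adjusted p = 0.185). None was called when genes with low counts were kept in the test (adjusted p = 0.199, 0.166 and 0.165), and that at 24 h was not called by DESeq2 (adjusted p = 0.0553). I-BET alone gave 0.745 and 0.657 RPKM at 4 h, 0.580 and 0.462 at 14 h, and 0.754 and 0.547 at 24 h, with no call (0.47 ± 0.23, adjusted p = 0.23; 0.10 ± 0.23, adjusted p = 0.878; 0.44 ± 0.22, adjusted p = 0.218).

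Dusp16 (ENSMUSG00000030203, mm10 chr6:134715473-134792625, minus strand) had its 6 calls all upward. It was at 1.70 and 1.67 RPKM in untreated cells, the group with the lowest mean. RANKL gave 1.98 and 1.83 RPKM at 4 h, 2.09 and 1.61 at 14 h, and 2.30 and 2.34 at 24 h. I-BET alone gave 2.27 and 2.04, 2.65 and 2.39, and 2.78 and 3.08 RPKM at the same hours. The combination gave 2.67 and 2.80, 2.68 and 2.75, and 3.03 and 3.07 RPKM, above both RANKL libraries of each hour. Dusp16 rose by 0.71 ± 0.12 at 24 h of I-BET (adjusted p = 0.000768), which held with each library left out, and by 0.48 ± 0.12 at 14 h of I-BET (adjusted p = 0.0138), with 0.20 ± 0.12 at 4 h (adjusted p = 0.357). It rose by 0.41 ± 0.12 at 24 h of RANKL (adjusted p = 0.0262), with 0.10 ± 0.12 at 4 h (adjusted p = 0.858) and 0.12 ± 0.12 at 14 h (adjusted p = 0.562). Against RANKL, the combination raised it by 0.51 ± 0.12 at 4 h (adjusted p = 0.0118), 0.51 ± 0.12 at 14 h (adjusted p = 0.00588) and 0.36 ± 0.12 at 24 h (adjusted p = 0.0331). Between 24 and 4 h of RANKL the difference was 0.31 ± 0.12 (adjusted p = 0.0744; 0.0208 with the block).

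Of the 6 Dusp16 calls 5 ended when a library was left out. With I-BET at 14 h these were untreated library 1 (0.42, adjusted p = 0.134) and I-BET library 1 (0.44, adjusted p = 0.102). At 24 h of RANKL any 1 of the 4 libraries ended the call (0.34 to 0.47, adjusted p = 0.0686 to 0.191), and so did each of 4 with RANKL plus I-BET against RANKL at 24 h (0.34 to 0.42, adjusted p = 0.0601 to 0.151). At 4 h of the combination these were RANKL library 1 (0.53, adjusted p = 0.069), RANKL library 2 (0.49, adjusted p = 0.1) and the combined library 2 (0.45, adjusted p = 0.102). At 14 h they were RANKL library 2 (0.39, adjusted p = 0.0724) and the combined library 2 (0.45, adjusted p = 0.067). The same 5 Dusp16 comparisons missed the threshold when genes with low counts were kept (adjusted p = 0.0507 to 0.236).

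Upstream of the kinases, Spry2 (ENSMUSG00000022114, mm10 chr14:105891949-105896819, minus strand), an inhibitor of growth factor signalling to RAS and ERK, had the narrowest range. It was at 1.94 and 1.86 RPKM in untreated cells, the lowest group, and at 2.46 and 2.57, 2.75 and 3.09, and 2.98 and 3.0 RPKM at 4, 14 and 24 h of RANKL. Every treated library lay above both untreated ones. Spry2 rose by 0.62 ± 0.16 at 14 h (adjusted p = 0.0143) and by 0.60 ± 0.16 at 24 h of RANKL (adjusted p = 0.016), with 0.33 ± 0.16 at 4 h (adjusted p = 0.353). The call at 14 h ended without untreated library 1 (0.57, adjusted p = 0.101), untreated library 2 (0.67, adjusted p = 0.0756) or RANKL library 2 (0.48, adjusted p = 0.141). That at 24 h ended with any 1 of 4 libraries left out (0.55 to 0.65, adjusted p = 0.0547 to 0.114). Neither was called with low-count genes kept (adjusted p = 0.0742 and 0.123). With I-BET alone Spry2 was at 2.71 and 2.92, 2.66 and 2.31, and 2.13 and 2.49 RPKM, and with RANKL plus I-BET at 2.42 and 2.96, 2.84 and 2.38, and 2.92 and 2.54 RPKM. No difference with I-BET was called; the largest was 0.41 ± 0.16 against untreated cells at 4 h (adjusted p = 0.126), and against RANKL they lay between -0.22 and 0.07.

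Spred1 (ENSMUSG00000027351, mm10 chr2:117121374-117182279), an inhibitor of RAS that works with neurofibromin, had the highest level per length of the 10 genes in each group. It was at 99.8 and 86.5 RPKM in untreated cells, 88.6 and 83.3 at 4 h, 112.9 and 95.8 at 14 h, and 139.8 and 137.3 at 24 h of RANKL. The 2 libraries of 24 h stood above all other Spred1 values. Spred1 rose by 0.53 ± 0.13 against untreated cells at 24 h (adjusted p = 0.0111) and by 0.71 ± 0.13 between 4 and 24 h of RANKL (adjusted p = 0.00134). The second call held with each library left out. The first ended without untreated library 1 (0.54, adjusted p = 0.0565), untreated library 2 (0.50, adjusted p = 0.0935), RANKL library 1 (0.54, adjusted p = 0.0501) or RANKL library 2 (0.51, adjusted p = 0.055). At 4 and 14 h of RANKL the differences were -0.18 ± 0.13 (adjusted p = 0.641) and 0.16 ± 0.13 (adjusted p = 0.466).

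I-BET alone gave Spred1 levels of 66.6 and 59.8 RPKM at 4 h, the lowest group, 81.7 and 61.8 at 14 h, and 90.2 and 75.5 at 24 h. The pairs of 4 and 14 h lay below both untreated libraries. Spred1 fell by 0.71 ± 0.13 at 4 h (adjusted p = 0.00386) and by 0.47 ± 0.13 at 14 h (adjusted p = 0.0287), with -0.25 ± 0.13 at 24 h (adjusted p = 0.235; 0.0184 with the block, and 0.231 with it but without untreated library 2). The call at 4 h ended without I-BET library 2 (-0.64, adjusted p = 0.058). That at 14 h ended without untreated library 1 (-0.45, adjusted p = 0.131), untreated library 2 (-0.47, adjusted p = 0.124) or I-BET library 2 (-0.30, adjusted p = 0.28). Under the combination Spred1 was at 78.3 and 68.5, 91.9 and 79.3, and 94.6 and 76.0 RPKM, below both RANKL libraries of the same hour throughout. Against RANKL it fell by 0.73 ± 0.13 at 24 h (adjusted p = 0.000825), which held with each library left out. At 4 and 14 h the differences were -0.25 ± 0.13 (adjusted p = 0.298; 0.0232 with the block) and -0.33 ± 0.13 (adjusted p = 0.0879; 0.00212 with the block).

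Spred2 (ENSMUSG00000045671, mm10 chr11:19924375-20024026), its paralog, followed Spred1 over a smaller range. It was at 15.3 and 10.7 RPKM in untreated cells, and at 13.5 and 10.8, 16.5 and 14.2, and 20.2 and 14.4 RPKM at 4, 14 and 24 h of RANKL. Library 1 was above library 2 in 10 of 10 groups for Spred2, and likewise for Spred1. With I-BET alone Spred2 was at 12.2 and 10.8, 13.1 and 9.61, and 13.6 and 12.1 RPKM, and with RANKL plus I-BET at 11.2 and 9.57, 12.9 and 10.9, and 12.4 and 11.1 RPKM. Each of the 9 neighbouring pairs of groups in the order of its means overlapped in RPKM. Spred2 fell by 0.59 ± 0.17 with RANKL plus I-BET against RANKL at 24 h (adjusted p = 0.0192) and rose by 0.53 ± 0.17 between 4 and 24 h of RANKL (adjusted p = 0.038). The first call ended without RANKL library 1 (-0.34, adjusted p = 0.261), the combined library 1 (-0.64, adjusted p = 0.0575) or the combined library 2 (-0.52, adjusted p = 0.127). The second ended without RANKL 4 h library 1 (0.65, adjusted p = 0.0601), RANKL 4 h library 2 (0.40, adjusted p = 0.227) or RANKL 24 h library 1 (0.31, adjusted p = 0.314). Spred2 was also called with the block, and not without it, in 6 comparisons between groups: RANKL at 14 h (0.26, adjusted p = 0.014) and 24 h (0.37, adjusted p = 0.000871), I-BET at 4 h (-0.31, adjusted p = 0.00598) and 14 h (-0.27, adjusted p = 0.0124), and RANKL plus I-BET against RANKL at 4 h (-0.24, adjusted p = 0.0245) and 14 h (-0.42, adjusted p = 0.000233). Without untreated library 2 in that fit, the first of these was not called (0.20, adjusted p = 0.192), and the 3 others with untreated cells were.

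Whether RANKL still changed these genes when I-BET was present was asked by setting RANKL plus I-BET against I-BET. None of the 10 was called at 4, 14 or 24 h in the edgeR fit used throughout (filtered, no block), where 0.517, 0.904 and 0.262% of all tested genes were called. At an unadjusted p under 0.05 there were 5, 3 and 2 of the 10, beside 5.35, 8.97 and 5.62% of all genes. DESeq2 called 1, 2 and 0 of the 10 (1.18, 2.66 and 0.885% of all genes), and the fit with the block 4, 3 and 0 (3.07, 6.58 and 2.95%). With low-count genes kept edgeR called 3, 1 and 1 of the 10, beside 176, 316 and 236 of 29470 genes. The nuclear phosphatases were higher in both combined libraries than in both I-BET libraries at 4 h: Dusp5 by 1.37 ± 0.32 (adjusted p = 0.114), Dusp2 by 0.90 ± 0.27 (adjusted p = 0.342), Dusp4 by 0.71 ± 0.23 (adjusted p = 0.424) and Dusp1 by 0.48 ± 0.15 (adjusted p = 0.342). With the block Dusp5 (adjusted p = 0.000491), Dusp2 (0.00194), Dusp16 (0.0303) and Dusp1 (0.0454) were called at 4 h, and Dusp4 (0.0111), Dusp1 (0.0139) and Spred1 (0.0249) at 14 h. DESeq2 called Dusp5 at 4 h (adjusted p = 0.00656) and Dusp4 (0.00195) and Dusp1 (0.0177) at 14 h. With low-count genes kept, Dusp5 (adjusted p = 7.79e-07), Dusp2 (0.000843) and Dusp4 (0.0034) were called at 4 h, Dusp4 (2.91e-07) at 14 h and Dusp6 (0.0369) at 24 h. At 24 h the values without a call were 0.41 ± 0.15 for Dusp1 (adjusted p = 0.618) and -0.75 ± 0.28 for Dusp6 (adjusted p = 0.634).

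The difference between the 2 settings was tested as an interaction. It is the difference of RANKL plus I-BET from RANKL at an hour, minus that of I-BET at this hour from untreated cells. As untreated cells were taken at hour 0 only, time in culture enters the second term and cannot be told apart from treatment. At 4 h the filtered edgeR fit without the block called none of the 10 genes, and of all tested genes 0 (0%). There 3 of the 10 and 702 of all genes (4.38%) had an unadjusted p under 0.05, DESeq2 called 0 and 73, and edgeR with low-count genes kept called 1, Dusp5 (-1.43, adjusted p = 0.00274), and 139. At 14 h none of the 10 was called, against 2.78% of all tested genes; 5 of the 10 and 1974 of all genes (12.3%) had an unadjusted p under 0.05. DESeq2 called Dusp6 (1.51, adjusted p = 0.0105) and 863 of all genes (5.38%). At 24 h 2 were called, against 5.25% of all genes. Of these 1 was positive (3.94% of all genes) and 1 negative (1.32%). Dusp1 had an interaction of 0.79 ± 0.21 (adjusted p = 0.0438), with a difference of -0.98 without RANKL (I-BET against untreated cells of hour 0) and -0.19 with it. Dusp2 had an interaction of -1.46 ± 0.39 (adjusted p = 0.0472), with 0.77 without RANKL and -0.68 with it. Either call ended with any 1 of the 8 libraries left out, at 0.69 to 0.93 (adjusted p = 0.0507 to 0.142) for Dusp1 and -1.65 to -1.19 (adjusted p = 0.0507 to 0.16) for Dusp2, and that of Dusp1 also with low-count genes kept (adjusted p = 0.107). With the block 2, 3 and 4 of the 10 were called, beside 1.22, 11.7 and 18.3% of all genes: Dusp5 (-1.45, adjusted p = 0.0169) and Spred1 (0.46, adjusted p = 0.049) at 4 h, Dusp2 (-1.06, adjusted p = 0.00375), Dusp6 (1.46, adjusted p = 0.0119) and Dusp5 (-1.21, adjusted p = 0.0195) at 14 h, and, beside Dusp1 and Dusp2, Spred1 (-0.49, adjusted p = 0.00425) and Spred2 (-0.50, adjusted p = 0.0031) at 24 h. Without untreated library 2 the block fit called 0 of the 10 at 4 h (adjusted p = 0.142 for Dusp5 and 0.315 for Spred1) and 0 at 14 h (0.0504 for Dusp2, 0.121 for Dusp6 and 0.148 for Dusp5), and 4 at 24 h. Whether the interactions of Dusp5 and Dusp6 at 14 h were called therefore depended on the fit. In the filtered fit without the block Dusp5 was at -1.18 ± 0.48 (adjusted p = 0.301) and Dusp6 at 1.49 ± 0.42 (adjusted p = 0.0858). With low-count genes kept Dusp5 (-1.20, adjusted p = 0.02), Dusp6 (1.48, adjusted p = 0.000226) and Dusp2 (-1.07, adjusted p = 0.00696) were called at 14 h, beside 666 of 29470 genes.

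Between 4 and 24 h of RANKL 5 of the 10 were called, against 22.4% of all tested genes. Dusp5, Dusp1 and Dusp4 fell (12.6% of all genes) and Spred1 and Spred2 rose (9.77%), with the values given above. Dusp2, Dusp6, Dusp10, Dusp16 and Spry2 were not called, at 0.06, -0.47, 0.19, 0.31 and 0.27.

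Over the 10 group means of log2 CPM (prior count 2), which share libraries and depth within a group, the genes fell into a few patterns. Pearson's r, given as a description, was 0.973 for Dusp1 with Dusp4, 0.919 for Dusp5 with either, and 0.929 for Spred1 with Spred2. It was -0.823 for Dusp5 with Dusp6 and 0.838 for Dusp6 with Dusp10, while Dusp1 with Spred2 gave 0.03. Among 9449 other tested genes with a mean of at least 5 CPM, the closest in pattern to Dusp1 were Slc7a11 (r = 0.977), Dusp4 and Rptor (0.972). Closest to Dusp4 were Pik3r5 (0.983), Dusp1 and Agpat4 (0.961), to Dusp5 Rassf8 (0.987), Mex3c (0.983) and Pdgfb (0.980), and to Dusp6 Txnip (0.995), Rnf166 (0.990) and Fzd7 (0.989). The closest genes to Dusp2 were Nfkbib (0.960), Rad17 (0.950) and Nfkbie (0.947), of which Nfkbib and Nfkbie encode inhibitors of NF-kappa B. Dag1 (0.970), Tax1bp1 (0.981), Hook2 (0.963), Urm1 (0.979) and Epb4.1 (0.971) came closest to Dusp10, Dusp16, Spry2, Spred1 and Spred2.

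The other genes of the pathway were read from 6 lists. Of all tested genes 3.91% were called at 4 h of RANKL, 18.9% at 24 h of RANKL and 26.8% with RANKL plus I-BET against RANKL at 24 h. The counts below stand beside these shares. Of 16 other MAP kinase phosphatases and atypical dual-specificity phosphatases 13 were tested, and none rose at 4 h of RANKL while 1 fell, Dusp3 (-0.57 ± 0.15, adjusted p = 0.0461). At 24 h of RANKL 2 fell, Dusp22 (-0.83 ± 0.16) and Dusp3 (-0.79 ± 0.15), and 1 rose, Dusp18 (0.76 ± 0.25). With RANKL plus I-BET against RANKL at 24 h 4 rose and 3 fell, led by Dusp22 (1.20 ± 0.16) and Dusp3 (1.15 ± 0.15). The list's median difference there was 0.31, beside -0.05 for all tested genes and -0.29 for the 10 genes above. Of 4 other Sprouty and SPRED genes 2 were tested, and both rose at 24 h of RANKL and fell with RANKL plus I-BET against it at 24 h. Spred3, at a mean of 1.28 CPM, rose by 1.69 ± 0.35 (adjusted p = 0.00396) and fell by 1.68 ± 0.34 (adjusted p = 0.00193). The other gene had a mean under 1 CPM and is not named. Of 6 other phosphatases of MAP kinases 5 were tested. Ptpn7, a tyrosine phosphatase of ERK and p38 in blood cells, fell with I-BET at each hour, by 0.84 to 0.91 alone and by 0.64 to 0.91 with RANKL.

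**Figure D4:**
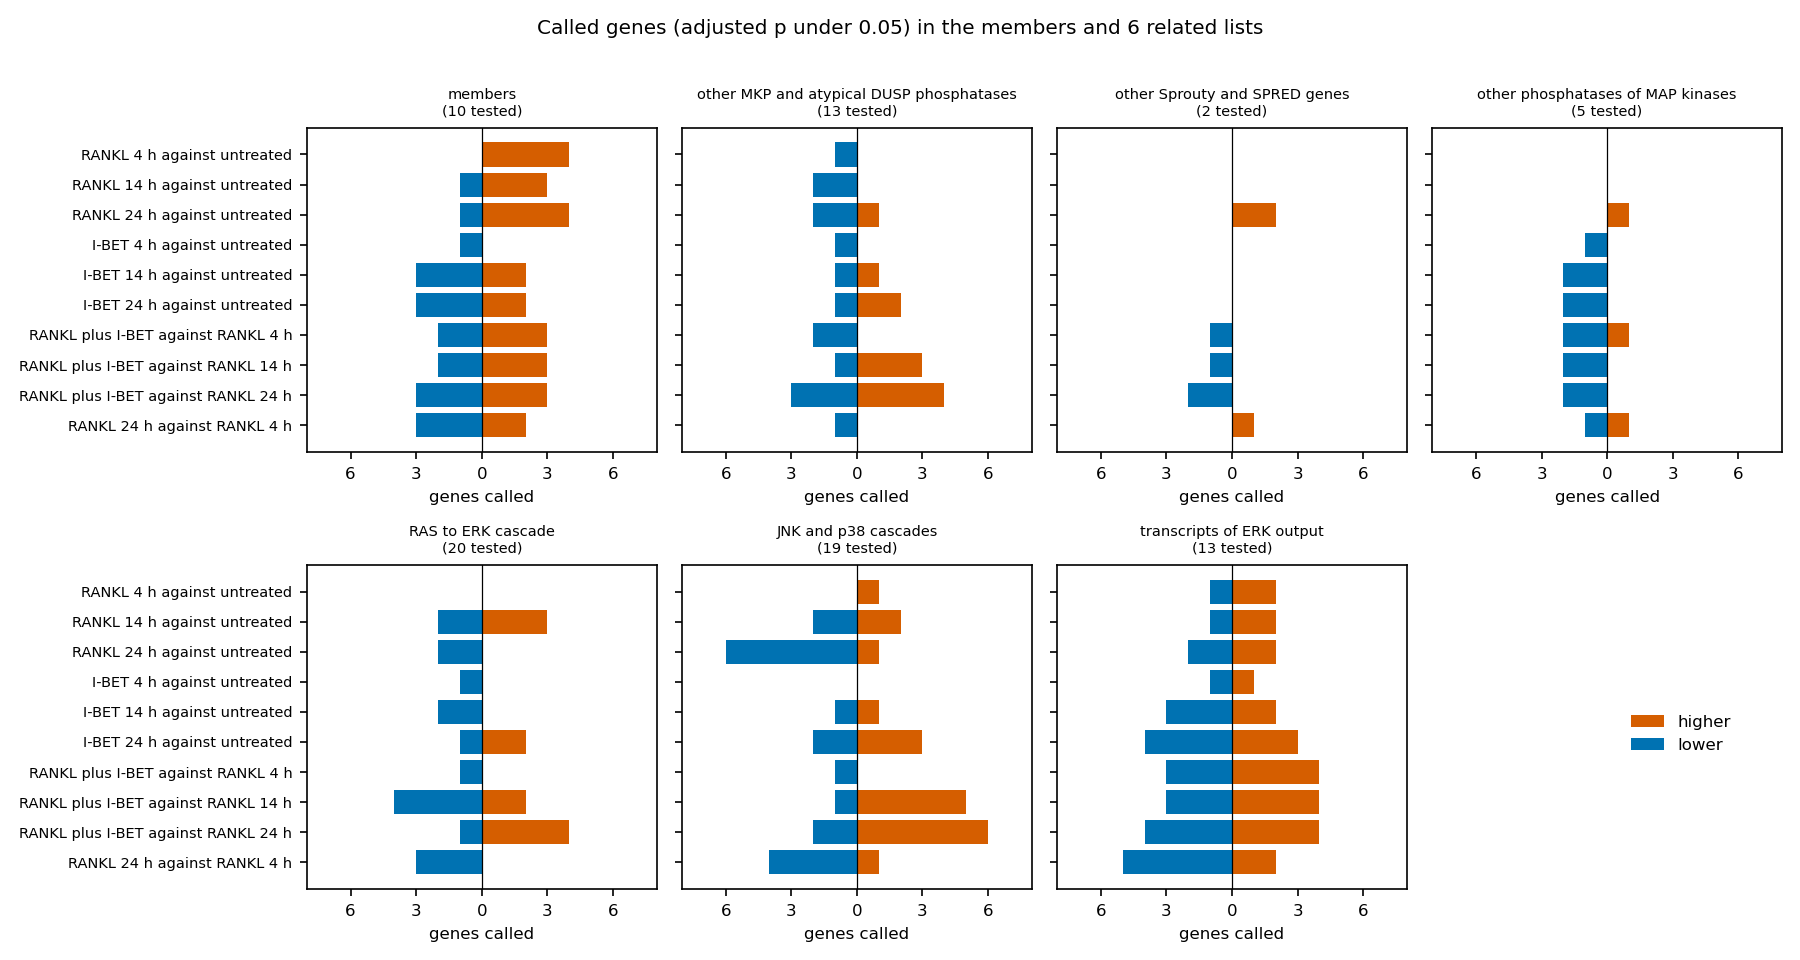
Number of called genes (x axis; lower to the left of 0, higher to the right) in the 10 genes (panel members) and in 6 lists of related genes, for 10 comparisons (y axis); the number tested stands in each panel title. With RANKL plus I-BET against RANKL at 24 h, the JNK and p38 list has 6 genes called higher and 2 lower, and the 10 genes 3 and 3. Of all tested genes 13.9% were called higher there and 12.9% lower.

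Of 20 genes of the cascade from RAS to ERK 3 rose and 2 fell at 14 h of RANKL, where 18.4% of all tested genes were called. Among the 3 was Map2k1, which encodes an ERK activator (0.57 ± 0.16). At 24 h of RANKL (18.9% of all tested genes called) 2 fell, Mapk3, which encodes an ERK (-0.43 ± 0.10), and Shc1 (-0.31 ± 0.09). With RANKL plus I-BET against RANKL at 24 h 4 of the 20 rose and 1 fell, near the share of all tested genes called there (26.8%). Among them were Ptpn11 (0.54 ± 0.10), Nras (-0.52 ± 0.10) and Shc1 (0.48 ± 0.09). Of 21 genes of the JNK and p38 cascades 19 were tested. At 4 h of RANKL (3.91% of all tested genes called) 1 rose, Map2k3, a p38 activator (0.54 ± 0.09). At 24 h (18.9% called) 1 rose and 6 fell. The largest fall was that of Map3k5, a kinase upstream of JNK and p38 (-1.53 ± 0.15, adjusted p = 7.12e-06). With RANKL plus I-BET against RANKL at 24 h (26.8% of all tested genes called) 6 rose and 2 fell, led by Map3k5 (1.56 ± 0.15), Mapkapk2 (1.31 ± 0.23) and Mapk14, a p38 kinase (0.91 ± 0.09). The list's median there was 0.44, beside -0.05 for all tested genes.

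Of 14 transcripts known to follow ERK activity 13 were tested. At 4 h of RANKL, when Dusp1, Dusp2, Dusp4 and Dusp5 rose, 2 rose and 1 fell, beside 3.91% of all tested genes called. They were Fosl1 (1.85 ± 0.28), Fos (1.62 ± 0.28) and Etv5 (-0.66 ± 0.14). With I-BET alone at 24 h (17.7% of all tested genes called) 3 rose and 4 fell, led by Fosl1 (-2.88 ± 0.31), Egr1 (2.88 ± 0.35) and Fos (-2.65 ± 0.30). With RANKL plus I-BET against RANKL at 24 h (26.8% of all tested genes called) 4 rose and 4 fell, again led by Fosl1 (-4.13 ± 0.32), Fos (-2.92 ± 0.30) and Egr1 (2.51 ± 0.36). Members of this list therefore moved in both directions in the same comparison, as Dusp5 and Dusp6 did. The list's median was 0.07 at 4 h of RANKL and -0.31 in the last comparison, where that of all tested genes was 0.01 and -0.05.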

How the data were processed

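Poly(A) RNA of RAW264.7 cells was sequenced as 20 libraries, a pair for each of 10 groups. Per the submitters' processing notes, FastQC, STAR 2.5.3a, DESeq2 1.16.1 and the build GRCm38 (mm10) were used; which tool counted the reads, and whether by strand, is not given in the sources used here. What the authors deposited were raw counts for each gene and, separately, RPKM values. The deposited RPKM are the counts over transcript length and total (25807 of 25807 genes checked, within 0.1%), so they add no independent data. Levels were read from the RPKM and differences from the counts.

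The tests used edgeR 4.0.16 (R 4.3.3) on the raw counts, with TMM scaling, filterByExpr on the groups (16042 genes left), 1 mean per group in a fit of all 20 libraries (10 residual degrees of freedom) and robust quasi-likelihood F tests. In each of 16 comparisons p-values were adjusted by Benjamini-Hochberg over these genes. Calls are at adjusted p under 0.05. Alternatives were RLE size factors, no filter on low counts, DESeq2 1.42.0, the library number as a block, leaving out each library, and, added after seeing the data, the block without untreated replicate 2. Library numbers pair the samples: same-numbered libraries deviated together in all 45 pairs of groups (correlations of 0.2205 to 0.596). The labels do not say what a number marks. The main fit leaves this pairing out. Its common coefficient of variation between libraries was 0.162, and that of the fit with the block 0.0751. A gene not called in the main fit can therefore be called with the block. The procedure was tested on simulated data for RANKL at 4 h against untreated cells only. The simulation held no shift shared by libraries of the same number, so it cannot show how the main fit does under such a shift. Named were the 10 genes, at most 3 called genes per list and comparison with a mean of at least 1 CPM, and the 3 genes closest in pattern to each. The genes and lists were chosen with earlier results of these data known. Figures were drawn with matplotlib 3.10.9.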

Additional observations from a re-analysis of the deposited data

Results flagged for a closer look

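Effects that differed between settings by a test of the difference itself were singled out. The interaction at 24 h was called for Dusp1 (0.79 ± 0.21, adjusted p = 0.0438, edgeR) and for Dusp2 (-1.455 ± 0.39, adjusted p = 0.0472). Its term without RANKL is against untreated cells of hour 0, so time in culture and treatment cannot be told apart in it. Neither call held with any 1 of the 8 libraries left out. The level under RANKL differed between 24 and 4 h for Dusp1 (-1.42 ± 0.15), Dusp4 (-1.23 ± 0.23), Dusp5 (-1.94 ± 0.32), Spred1 (0.71 ± 0.13) and Spred2 (0.53 ± 0.17). Of these 5, the call of Spred2 ended without RANKL 4 h library 1 (0.65, adjusted p = 0.0601), RANKL 4 h library 2 (0.40, adjusted p = 0.227) or RANKL 24 h library 1 (0.31, adjusted p = 0.314), and the other 4 held with each library left out.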

How the results depend on the processing

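Of the 47 calls of the 10 genes none reversed under any alternative run. RLE size factors ended 0 of them and added 0, the replicate block ended 0 and added 31, DESeq2 ended 1 and added 9, and no filter on low counts ended 11 and added 16. Leaving out 1 library ended 29 at least once, and 18 held with each library left out. The library numbers pair the samples for the replicate block. Its counts of called genes were 8 with RANKL at 24 h (5 without it), 2 with I-BET at 4 h (1), 8 with RANKL plus I-BET against RANKL at 14 h (5), 4 and 3 against I-BET at 4 and 14 h (0 and 0), and 2, 3 and 4 for the interactions at 4, 14 and 24 h (0, 0 and 2); elsewhere it moved counts by no more than 1.5 times. With the replicate block and untreated replicate 2 left out the counts were 2 with I-BET at 4 h and 0, 0 and 4 for the interactions. Without the filter they were 3, 1 and 1 for RANKL plus I-BET against I-BET and 1, 3 and 1 for the interactions. DESeq2 gave 1 and 2 for RANKL plus I-BET against I-BET at 4 and 14 h and 1 for the interaction at 14 h. With 1 library left out the counts were 2 to 3, 3 to 4 and 1 to 2 with RANKL at 4, 14 and 24 h, 0 to 1, 1 to 5 and 3 to 5 with I-BET, 1 to 3, 3 to 5 and 3 to 4 with the combination against RANKL, 0 to 0 for the interaction at 24 h, and 4 to 5 between 24 and 4 h of RANKL. Over all tested genes the block called 2325, 5827 and 5901 with RANKL (627, 2948 and 3032 without it), 4651, 4786 and 5804 with I-BET (1686, 2192 and 2839), 4507, 6454 and 7475 with the combination against RANKL (1828, 3538 and 4299), 493, 1056 and 473 against I-BET (83, 145 and 42), 195, 1876 and 2941 for the interactions (0, 446 and 843), and 6853 between 24 and 4 h of RANKL (3589). With untreated replicate 2 also left out it called 1174 with RANKL at 4 h, 2617 with I-BET at 4 h, and 66, 1183 and 1970 for the interactions. DESeq2 called 1085 with RANKL at 4 h, 189, 426 and 142 against I-BET, and 73, 863 and 1267 for the interactions; without the filter 176, 316 and 236 against I-BET and 139 and 1286 for the interactions at 4 and 24 h; RLE 4 for the interaction at 4 h. Leaving out 1 library gave as few as 155 with RANKL at 4 h, 516 with I-BET at 4 h and 2 with the combination against I-BET at 24 h. The cause of these shifts was not tested; leaving out a library also leaves a group with 1 library, assumed to vary like the others. Of 1080 alternative values of genes not called, 43 had the opposite sign, none of them called. Dusp10 had the fewest counts of the 10 genes, at 29 to 143 per library, and the part of depth in its results was not tested.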
